A study of Canis lupus familiaris with 2 samples.

Results

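The subject is 6 miRNAs of the dog that lie within protein-coding genes and that had been noted to differ between monolayer and spheroid cultures of SNP cells: cfa-miR-218, cfa-miR-708, cfa-miR-33a, cfa-miR-342, cfa-miR-139 and cfa-miR-338, where cfa stands for the dog. They were found by name on the array, with any arm suffix allowed, and matched to the authors' value table by their miRBase identifiers, which gave 6 probes of the 291 dog miRNA probes, each with 1 spot. SNP cells are canine mammary gland tumour cells, and both samples came from them. The monolayer group was 1 sample of adherent cells kept in RPMI-1640 with fetal bovine serum and antibiotics, and the spheroid group was 1 sample grown from selected non-adherent cells without added basement membrane or matrix. Neither group received a drug or carried a genetic change that the labels name, and the age of the dog is not given in the sources used here. Because the spheroids were started from cells that had not attached, selection of cells and form of culture cannot be told apart. Fewer cells expressing a miRNA and less of it in each cell cannot be told apart either. Total RNA, with an integrity of 9.8 (monolayer) and 9.7 (spheroids), was labelled with Cy5 and hybridised to 1 array per culture.

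An intragenic miRNA is cut from the transcript of the gene around it, or from a transcript of its own that starts inside that gene, so its level can follow its host gene or depart from it. The mature miRNA guides a silencing complex to messenger RNAs that pair with its seed. In the RefSeq table for the dog assembly UU_Cfam_GSD_1.0, the genes of these 6 miRNAs all lay inside the spans of the hosts known from human. miR-218 has 2 loci, inside SLIT2 and SLIT3, and 1 mature product, so its probe cannot tell the loci apart. miR-708 lay inside TENM4, miR-33a inside SREBF2, miR-342 inside EVL, miR-139 inside PDE2A and miR-338 inside AATK. The table gives neither exons nor strands, so position within an intron was not checked in the dog. Host gene messenger RNAs were not analysed here.

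The members were chosen by their measured differences between these 2 arrays, so every difference below is a description with no test, and 1 array per culture leaves no replicate check. All 6 were detected on both arrays, as were 178 miRNAs in all, of 180 detected in the monolayer and 201 in the spheroids. A spot counted as detected when its raw intensity, the median pixel brightness in the Cy5 channel, exceeded the mean of blank spots plus 2 SD. That limit was 89.8 (monolayer) or 79.8 (spheroids). In the units of the values deposited by the authors it was 2.89 or 1.54, so weaker signals counted as detected in the spheroids. miR-218, miR-33a, miR-342 and miR-338 were higher in the spheroids, and miR-708 and miR-139 were higher in the monolayer. The main values are log2 intensities after background correction and quantile normalization, and on that scale 1 member was higher and 1 lower by 2-fold or more, against 2.25% and 2.81% of the 178 (5.06% in either direction). By the same rule, the values deposited by the authors, where no offset was added, had 4 members higher and 2 lower, against 12.9% and 14.0% of the 178 (27.0% in either direction). Since the choice of members used these contrasts, nothing is read from those shares.

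**Figure D1:**
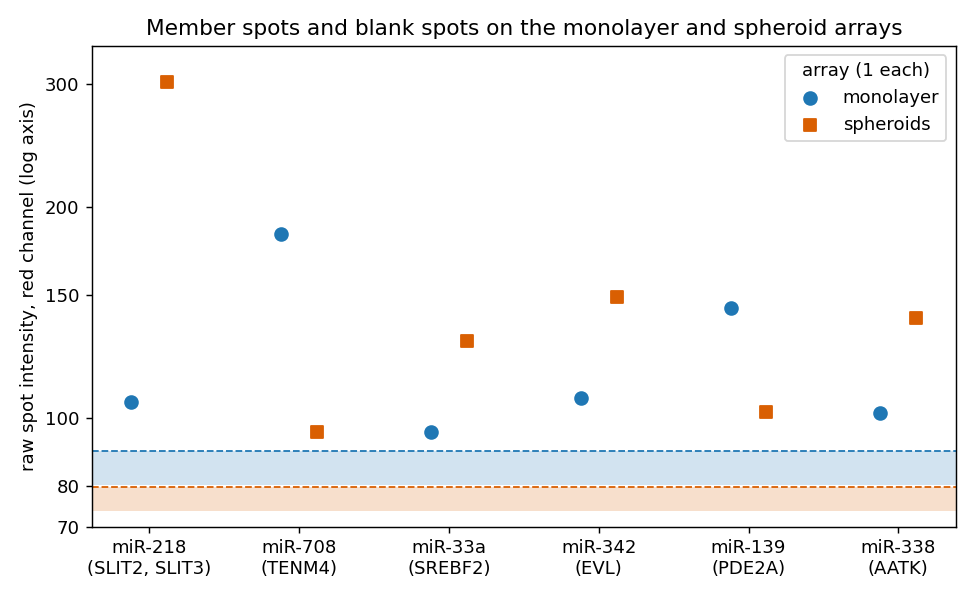
Raw spot intensity in the red (Cy5) channel (log axis) of the 6 members on the monolayer array (circles) and the spheroid array (squares), with the host gene of each in brackets. Shaded bands show the blank mean plus or minus 2 SD of each array and the dashed lines its upper edge, the detection limit (89.8 and 79.8). The monolayer spot of miR-33a, at 95.6, is the one nearest to its limit.

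SLIT2 and SLIT3 encode secreted guidance proteins that bind ROBO receptors, and miR-218 is known in human and mouse to repress ROBO1, so host and miRNA act on the same pathway. The miR-218 spot had a raw intensity of 105.5 on the monolayer array, against 302 on the other. It was thus close to the blank level in the monolayer and far above it in the spheroids, at 8.64 and 145.1 blank SDs over the blank mean. The deposited values were 12.5 and 112. Moving both spots by 2 blank SDs in opposite directions changed the deposited ratio from 8.97-fold to between 7.18-fold and 11.8-fold. Its normalized log2 levels were 6.35 and 7.97, a difference of 1.62. This was the largest difference in favour of the spheroids among the 178, and the second largest in the deposited values, after miR-210.

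TENM4 encodes a teneurin, a transmembrane protein of cell contacts, and miR-708 has been described in mouse as being made together with its host under stress of the endoplasmic reticulum. Its spot had a raw intensity of 183 in the monolayer and 95.7 in the spheroids. Both spots were clear of the blanks, by 41.5 and 12.2 SDs, and none of the 1408 blank spots of either array was brighter than the miR-708 spot there. Deposited values were 60.0 for the adherent cells and 9.41 for the spheroids. Their ratio of 6.37-fold became 5.21-fold to 7.99-fold when the spots were moved by 2 blank SDs, and it was the largest of the 178 in favour of the monolayer. The normalized log2 levels of 7.41 and 6.19 gave a difference of -1.22, rank 3 in that direction after miR-205 and miR-487b. miR-28, which in human belongs to the same seed family as miR-708 and lies within LPP, was named after its values were seen. It stood at 11.9 and 7.60 in deposited values, with a normalized log2 difference of -0.22.

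SREBF2 encodes the transcription factor that switches on cholesterol synthesis and uptake, and miR-33a, made from its intron in human and mouse, represses the cholesterol exporter ABCA1. The miR-33a spot had a raw intensity of 95.6 in the monolayer, against 128.9 for the spheroids. The monolayer spot was dim: it lay 4.43 blank SDs over the blank mean, and 4 of the 1408 blank spots were brighter. In the spheroids it lay 33.7 SDs over the mean. The deposited values were 6.402 and 25.97, a ratio of 4.06-fold that ran from 2.63-fold to 7.84-fold when the spots were moved by 2 blank SDs, the widest such range of the 6. The normalized log2 levels were 6.11 and 6.66, a difference of 0.55. With the detection limit raised to the blank mean plus 5 SD, miR-33a no longer counted as detected in the monolayer, whereas the other 5 members did on both arrays.

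miR-33b, the relative of miR-33a within SREBF1 in human, also lay inside SREBF1 in the dog table. SREBF1 encodes the partner factor that mainly drives fatty acid synthesis. Its spot had a raw intensity of 87.9 in the monolayer, not well above background, and 89.1 in the spheroids, over the limit there. With a deposited value of 6.17 in the spheroids it was at least 2.01-fold above the weakest spot counted as detected in the monolayer, and at least 1.08-fold above it in normalized values. Both miR-33 probes thus read higher over background in the spheroids, with monolayer spots just above or below the detection limit. Whether the probes read 1 shared signal was not tested.

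PDE2A encodes a phosphodiesterase that breaks down cyclic AMP and cyclic GMP, and miR-139 is often reported as low in human carcinomas. The miR-139 spot had a raw intensity of 143.5 in the monolayer and 102 in the spheroids, which is 24.7 and 16.4 blank SDs over the blank mean. Both spots were clearly above the blanks, and the monolayer spot was the brighter. The deposited values were 35.7 and 12.6, a ratio of 2.83-fold with a range of 2.32-fold to 3.49-fold. Its normalized log2 levels were 6.90 and 6.29, a difference of -0.62.

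EVL encodes a protein of the Ena/VASP family that lengthens actin filaments, and miR-342 has been linked to oestrogen receptor status in human breast tumours. The miR-342 spot had a raw intensity of 106.8 in the monolayer, against 148.8 for the spheroids. It lay 9.19 and 46.5 blank SDs over the blank mean. The deposited values were 13.3 and 35.9, a ratio of 2.70-fold with a range of 2.12-fold to 3.60-fold, the smallest deposited ratio of the 6. The normalized log2 levels of 6.37 and 6.95 differed by 0.58. The spots of miR-342 and miR-708 were printed in the same block of the array, number 18, where the median blank spot was 85.0 (monolayer) and 76.9 (spheroids).

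AATK encodes a kinase of the nervous system, and miR-338 is known in rodents for roles in neurons and in myelin-forming cells. The miR-338 spot had a raw intensity of 101.9 in the monolayer and 138.8 in the spheroids, at 7.08 and 40.1 blank SDs over the blank mean. The deposited values were 10.2 and 30.9, a ratio of 3.02-fold with a range of 2.24-fold to 4.42-fold. The normalized log2 levels were 6.25 and 6.84, a difference of 0.59. The sign of this difference was kept under 9 of the 10 other treatments. The scanner files hold a further column headed as background, which read 76.1 beside this spot in the monolayer and 118 in the spheroids. Subtracting that column from every spot, an alternative added after the data were seen, turned miR-338 to -0.26 while the other 5 members kept their direction. What the column holds is not known, and it rose with the spots on both arrays.

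The smaller differences of miR-33a, miR-342, miR-338 and miR-139 were close to each other in size, between 0.55 and 0.62 on the normalized log2 scale, and 39 of the 178 miRNAs (21.9%) were at least 0.5 apart. They ranked 17th, 16th and 15th in favour of the spheroids and 15th in favour of the monolayer. In the deposited values, where no offset was added, these 4 were less alike, from 2.70-fold (miR-342) to 4.06-fold (miR-33a). Their ranks there were 4th, 12th and 8th in favour of the spheroids and 9th in favour of the monolayer. Repeated control spots gave an SD of 0.065 for a log2 difference before quantile normalization, and blank spots one of 0.082. These SDs hold no variation between cultures, extractions or arrays, and the members were chosen by their differences, so nothing is read from setting one against the other. For the values with the blank mean subtracted, the dimmest control probe, with mean raw intensities of 98.3 and 86.3, had an SD of 0.245, and the control at 294 and 257 had one of 0.079. Fold sizes of dim spots in the deposited values therefore carry a larger error than those of bright ones.

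**Figure D2:**
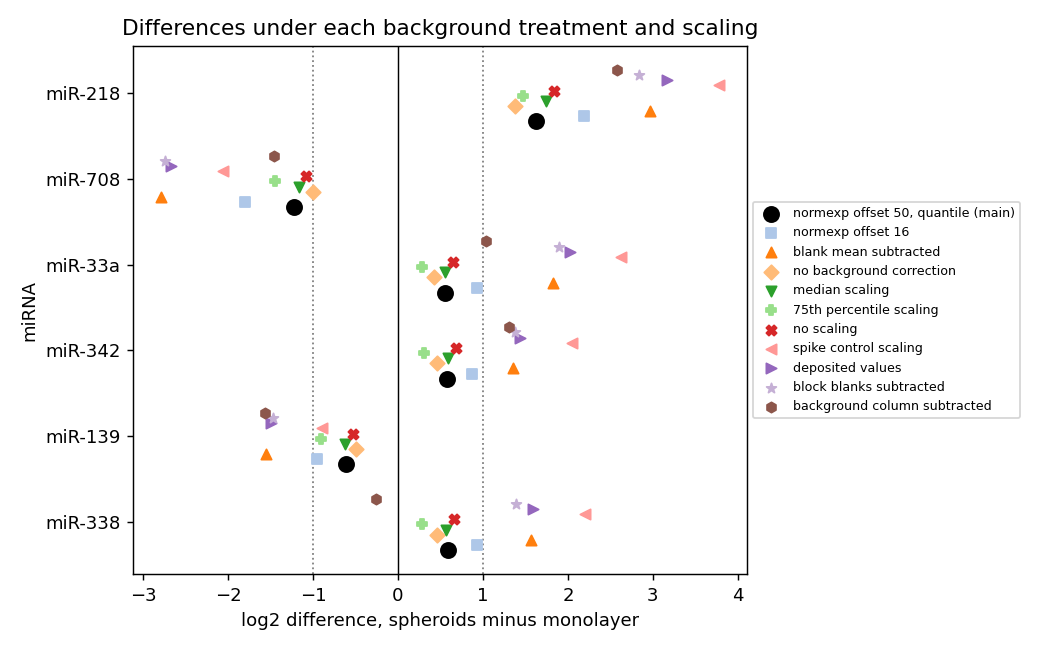
Log2 difference, spheroids minus monolayer, of each member under the main processing (black circles) and the 10 other background treatments and scalings. Dotted lines mark 2-fold. miR-218 and miR-708 lie at or beyond them in every setting, miR-33a, miR-342 and miR-139 keep their side of 0, and miR-338 is at -0.26 when the scanner's background column is subtracted.

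The direction of 5 members was the same under all 10 other treatments, and that of miR-338 under 9 of the 10. miR-218 lay between 1.38 and 3.77 and was 2-fold or more apart in all 10. miR-708 lay between -2.79 and -1.0002 and was also 2-fold or more apart in all 10. miR-33a lay between 0.28 and 2.63, miR-342 between 0.30 and 2.04, miR-338 between -0.26 and 2.20 and miR-139 between -1.57 and -0.49. These 4 were 2-fold or more apart in 5, 5, 4 and 4 of the 10 settings.

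Scaling an array moves all its probes together, so the change in the ratio of a pair of members between the arrays is free of it. Without scaling, the log2 ratio of miR-218 to miR-708 was 2.92 higher in the spheroid array than in the monolayer array, and that of miR-342 to miR-139 was 1.21 higher. The 3 members with the smaller increases moved alike on this measure: the log2 ratio of miR-33a to miR-342 changed by -0.03 and that of miR-342 to miR-338 by 0.02. In the deposited values the same ratios changed by 5.84, 2.93, 0.59 and -0.16.

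**Figure D3:**
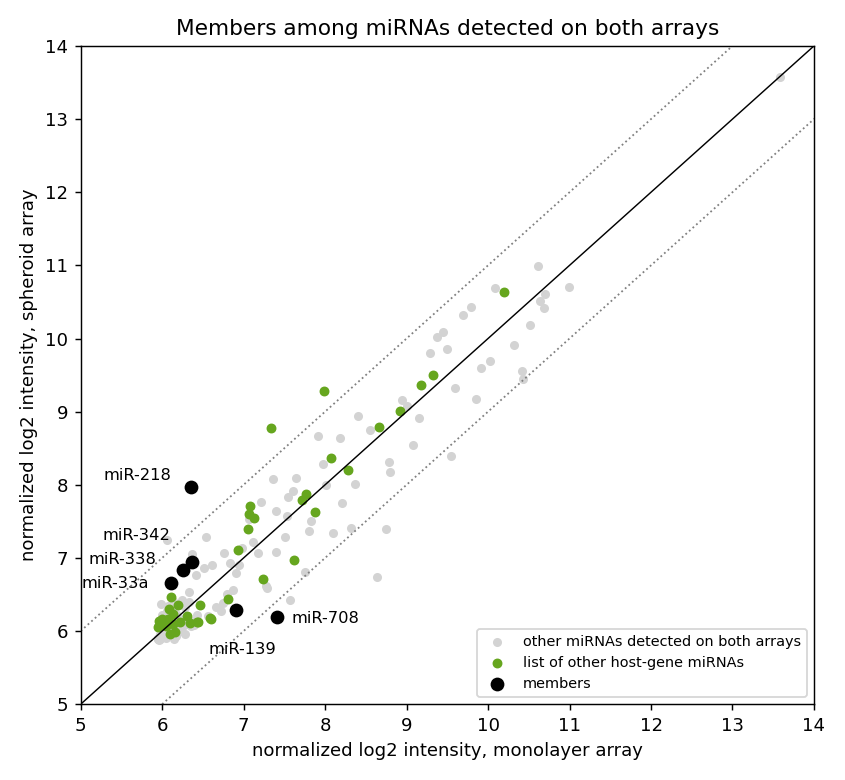
Normalized log2 intensity on the monolayer array (x) and the spheroid array (y) of the 178 miRNAs detected on both, with members in black and the list of other host-gene miRNAs in green. The solid line marks equal levels and the dotted lines 2-fold. miR-218 lies above the upper line and miR-708 below the lower one, and the other 4 members lie between the lines.

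The miRNAs with the pair of levels nearest to each member were sought over the 2 arrays, as distance in normalized log2 units. miR-218 had no close companion on these levels: miR-9 was nearest at 0.72, with a difference of 0.75, and then miR-15b at 0.77. On the same levels miR-218 had the largest difference in favour of the spheroids, so its distance is not a separate trait. miR-708 was nearest to miR-302c (0.29) and miR-505 (0.43), which were lower in the spheroids by log2 differences of -1.15 and -0.69. miR-33a was nearest to miR-340 (0.20) and miR-147 (0.25), miR-342 to miR-148a (0.11) and miR-130b (0.16), miR-338 to miR-374b (0.18) and miR-148a (0.25), and miR-139 to miR-140 (0.18) and miR-1307 (0.18). Probes differ in how brightly they report, so nearness of this kind describes spots and not amounts of miRNA.

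Other miRNAs known in human or mouse to lie within a host gene were taken as a list of 65 probes. Both arrays detected 40 of them, the spheroid array alone 8, the monolayer array alone 0 and neither array 17. Over all 291 probes, 23 were detected by the spheroid array alone and 2 by the monolayer array alone. The limit was lower in the spheroids, at 1.54 in deposited units against 2.89, so these counts are not like for like. Of the 8, miR-105a (2.42), miR-211 (2.17) and miR-452 (2.85) lay below the monolayer limit in these units. Among the 40, 24 were higher and 16 lower in the spheroids, with a median log2 difference of 0.10. Among all 178 miRNAs 80 (44.9%) were higher and 97 (54.5%) lower, with a median of -0.05. Some of the 40 share a host gene, as miR-25, miR-93 and miR-106b share MCM7, so these counts are not of independent miRNAs. The split depended on the scaling: with the 75th percentile, 16 were higher and 24 lower. It was 30 and 10 where 2 choices changed together, the blank mean being subtracted and the spike controls setting the scale. In the main values 2 of the 40 were 2-fold or more higher and 0 were 2-fold or more lower, beside 4 and 5 of the 178. As deposited, these counts were 7 and 3 of the 40, beside 23 and 25 of the 178. After subtraction of the blank mean they were 4 and 6, beside 17 and 34 of the 178. With each block's blanks subtracted they were 5 and 6, beside 19 and 34. By the spike controls they were 20 and 0, beside 69 and 6. With the scanner's background column subtracted they were 7 and 4, beside 28 and 27.

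The 4 of that list that were furthest apart were miR-26b, miR-26a, miR-615 and miR-15b. miR-26b and miR-26a lie within CTDSP genes, which encode phosphatases of RNA polymerase, and differed by 1.44 and 1.30. miR-26a has 2 loci, inside CTDSP2 and CTDSPL, and its probe cannot tell them apart. Whether the miR-26a and miR-26b probes read 1 shared signal was not tested. When the scanner's background column was subtracted, miR-26b was at -0.23. miR-615, within a HOXC gene of body patterning, had deposited values of 72.3 (monolayer) and 38.7 (spheroids), a normalized log2 difference of -0.64. miR-15b, within the condensin gene SMC4, stood at 45.9 and 91.4, a difference of 0.63.

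**Figure D4:**
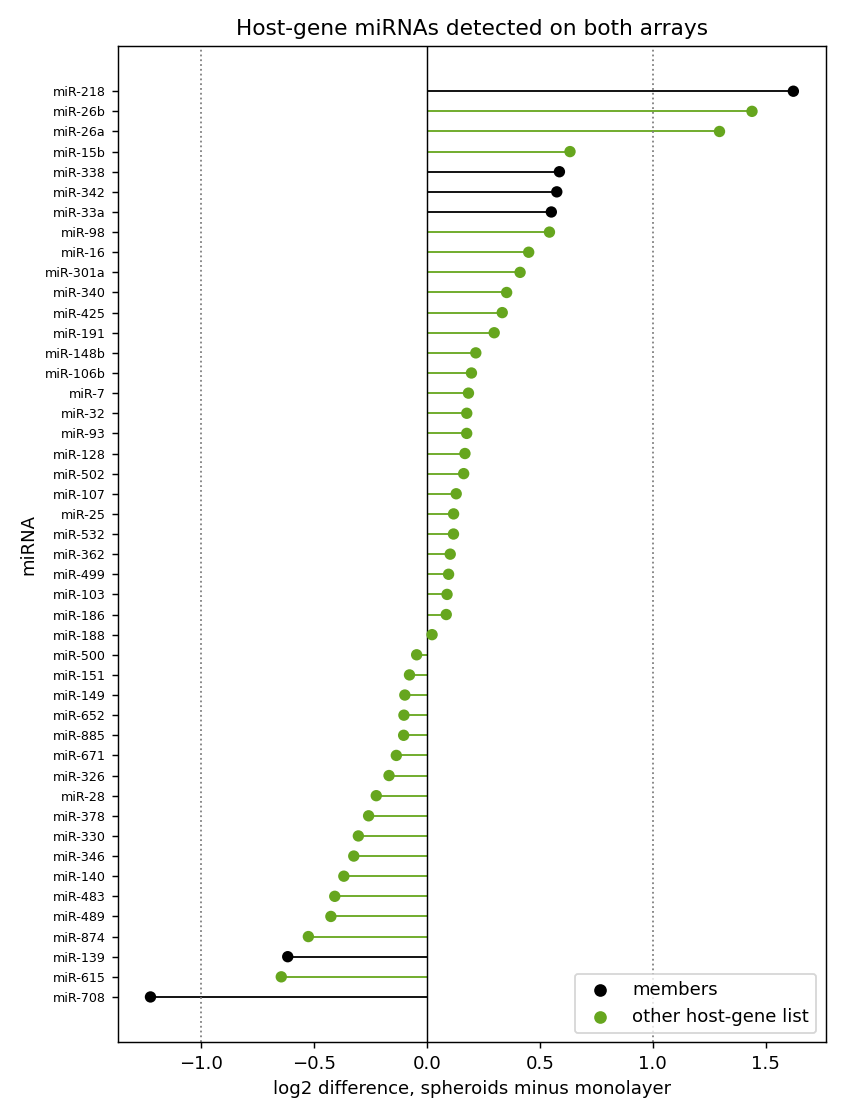
Log2 difference, spheroids minus monolayer, after normexp correction and quantile normalization, of the 40 listed host-gene miRNAs (green) and the 6 members (black) detected on both arrays, in order of size. Dotted lines mark 2-fold. Besides miR-218 and miR-708, miR-26b (1.44) and miR-26a (1.30) lie beyond them.

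Probes for miRNAs of epithelium were detected on both arrays, 6 of 6, with deposited values that summed to 900.4 (monolayer) and 1359 (spheroids). miR-205 of that list went against the sum, with deposited values of 170.0 and 27.6 and a normalized log2 difference of -1.90. Some members have roles in the nervous system, so the neuronal list is set beside them: 5 of its 8 probes were detected on each array, summing to 62.7 and 124.1, with miR-124, miR-137 and miR-153 detected on neither. miR-9, of that list, held 18.7 and 54.8 of those sums, while miR-129 went against them, at 6.65 and 5.59. The sums of the mesenchymal list were 73.3 and 51.1, with miR-143 and miR-145 detected on neither. Those of the striated muscle list were 35.1 and 22.0, with miR-1, miR-208a and miR-208b detected on neither. miR-499 of the muscle list went against its sum, at 5.28 and 8.80. Some muscle spots were dim: 82 (monolayer) and 91 (spheroids) blank spots were brighter than that of miR-133a. The sums of the blood list were 9.18 and 6.98, with miR-142, miR-144 and miR-451 detected on neither, and endothelial miR-126 was likewise detected on neither. Liver miR-122 was detected in the spheroids only, at 1.82. That value is below the monolayer limit, which was 2.89 in deposited units against 1.54 for the spheroids. Its raw intensities were 86.2 (monolayer) and 80.4 (spheroids), and 86 blank spots of the spheroid array were brighter. The part of other cell types in the members' differences was not tested.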

How the data were processed

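Total RNA of 1 monolayer and 1 spheroid sample was labelled with Cy5 and hybridised in 1 colour, per the labels' protocols. The scanner files deposited by the authors hold the median intensity of 3200 spots at 635 nm, built from scans at 3 gains, per the file headers. Nothing was normalized in them, and 0 spots carried a warning mark. The authors' deposited value table holds normalized intensity: each value matched raw intensity minus the blank mean, times 0.611 (monolayer) or 0.498 (spheroids), within 0.026%. The scanner software is not given in the sources used here.

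Blank spots (1408 per array, 5% left out at each end) set the detection limit. For the main values, limma 3.58.1 in R 4.3.3 applied normexp with an offset of 50 to all spots and quantile normalization to the log2 values of the 291 miRNAs. The offset shrinks differences of dim spots. The error between spots was taken from 6 control probes, each printed 8 times (42 degrees of freedom). A miRNA detected on 1 array is given as at least N-fold over the weakest spot detected on the other array, or over its own level there if higher. Other steps used Python 3.11.15 with numpy 2.4.6, pandas 2.3.3 and matplotlib 3.10.9. The normalization was tested on simulated data in which only spots well above the blanks were given a change. Changes in spots as dim as the monolayer ones of miR-218, miR-33a, miR-342 and miR-338 were outside that test. The number of arrays limits the precision, and no p-value was computed.

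The members and lists were chosen with earlier results of these data known. The text names every member, the 4 listed host-gene miRNAs with the largest differences, the 2 nearest miRNAs of each member, and markers. miR-28 and miR-33b were added for their kinship with members. Sequences were not used here, so shared seeds were not searched. Of the 291 names, 290 matched a miRNA gene in the RefSeq table, and of the 65 listed probes 60 lay inside the host they were listed with.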

Additional observations from a re-analysis of the deposited data

How the results depend on the processing

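Each difference was recomputed under 10 other background treatments and scalings, of which the subtraction of block blanks and of the scanner's background column were chosen after the data were seen. The number of members 2-fold or more higher was 1 in the main values. It was 4 with the blank mean subtracted, with spike control scaling, in the deposited values and with block blanks subtracted, and 3 with the background column subtracted. The number 2-fold or more lower was 1 by the main processing and 2 after subtraction of the blank mean, the block blanks or the background column, as well as in the deposited values. The listed host-gene miRNAs that were lower numbered 16 in the main values and 10 with spike control scaling, beside 97 and 52 of the 178. That setting changed 2 choices together, since it also subtracted the blank mean in place of normexp, so its values are not effects of scaling alone. Signs turned only with the background column subtracted, for miR-338 (-0.26) and miR-26b (-0.23), among the members and the 4 named miRNAs of the list; the cause was not tested. Over the 178 miRNAs, the median difference moved from the main one by -0.23 when the 75th percentile set the scale, 0.14 when no scale was set, 0.66 with the blank mean subtracted and the spike controls setting the scale, -0.15 with the blank mean, -0.17 with the block blanks and 0.13 with the background column subtracted. Counts of all miRNAs 2-fold or more higher and lower were 4 and 5 in the main values, 9 and 3 with median scaling, 13 and 2 unscaled, 69 and 6 by the spike controls, 23 and 25 as deposited, 17 and 34 with the blank mean, 19 and 34 with the block blanks and 28 and 27 with the background column subtracted. Signal over background limits miR-33a most. No paired analysis was possible because each culture had 1 sample.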

Other observations

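The RefSeq table allowed a wider list, chosen after the data were seen: besides the 6 members, 131 of the 290 matched miRNAs lay inside the span of at least 1 protein-coding gene, on either strand. Of these 131, 79 were detected on both arrays, with 42 higher and 37 lower in the spheroids and a median log2 difference of 0.02. Some of the 79 share a host gene, so they are not independent. Of the miRNAs that lay outside protein-coding genes, 93 were detected on both arrays, with 34 higher and 58 lower and a median of -0.08. With the 75th percentile scaling, 25 of the 79 and 26 of the 93 were higher. With the background column subtracted, the medians were 0.02 and 0.14, the opposite order, though what that column holds is not known.

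The scanner column headed as background was lower relative to the spot for miR-218 in the spheroids, at 0.395 of the spot, than for most miRNAs: 11 of the 178 were at or below that share, and the median share was 0.773. In the monolayer the share for miR-218 was 0.736. Over the 178, the log of that column and the log of the spot had a Pearson correlation of 0.964 in the monolayer and 0.943 in the spheroids, which describes these arrays, since the points share them.

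CLCN5, the host of several linked miRNAs, gave a view of dim spots: miR-660 was detected in the spheroids only, where it stood at 11.5 in deposited units. That is at least 3.74-fold above the weakest spot detected in the monolayer, but only at least 1.24-fold in normalized values. Its monolayer spot, at a raw intensity of 89.79, only just missed the limit of 89.83. The other listed CLCN5 miRNAs, miR-188, miR-362, miR-500, miR-502 and miR-532, were detected on both arrays. Their normalized log2 differences ran from -0.04 to 0.16. Their deposited values were all higher in the spheroids, from 1.01-fold (miR-500) to 2.06-fold (miR-502).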
